A study of Mus musculus with 56 samples.

Results

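Topotecan at 300 nM was compared with its vehicle in cultured mouse cortical neurons on 6 arrays of the Mouse430_2 type, whose probe sets lie mostly near the 3' end of transcripts. These 6 arrays, 3 with drug and 3 with vehicle, were taken by their titles from the 56 arrays of the series. Cortices of C57BL6 embryos between embryonic days 13 and 15 gave the neurons, which had 7 days in culture before the drug. The labels give drug treatment of 24 or 72 h for the series and do not say which of these applies to the 6 arrays, nor what the vehicle was. The labels name no genetic change for either group. The labels do not say whether the 3 arrays of a group came from separate cultures, so p-values measure the spread between these arrays.

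Topoisomerases cut DNA, let the torsion that transcription and replication build up pass, and seal it again. Topoisomerase I, the product of Top1, cuts 1 strand, and the topoisomerase II enzymes, products of Top2a and Top2b, cut both. Topotecan, a camptothecin derivative used against tumours, holds topoisomerase I on the DNA it has cut, and RNA polymerase II can stall at such sites. In postmitotic neurons the drug is known for lowering the transcripts of very long genes and for releasing the silenced paternal copy of the imprinted gene Ube3a.

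The arrays of the 2 groups were close to each other overall. Correlations over the genes tested were 0.964 to 0.983 among the topotecan arrays, 0.952 to 0.979 among the vehicle arrays and 0.901 to 0.961 between the groups. The first principal component held 54.7% of the variance and separated the groups, with topotecan 3 and vehicle 3 at its ends. Xist, which is transcribed from the inactive X chromosome of female cells, differed between arrays within both groups: its log2 level was 6.33, 14.29 and 10.36 on topotecan 1, 2 and 3 and 14.32, 6.37 and 6.85 on vehicle 1, 2 and 3. The Y-linked gene Eif2s3y had 10.54, 3.74 and 10.08 with topotecan and 3.63, 10.41 and 9.67 with vehicle. Thus 1 array of each group, topotecan 2 and vehicle 1, had high Xist and low Y-linked levels, and topotecan 3 had both at middle to high levels. On the 6 other arrays of this type, from another drug experiment, Xist was 13.28 to 13.5 and Eif2s3y 9.73 to 9.89. The groups overlapped for these genes, and same-numbered arrays did not match. With the Xist level of each array as a covariate, a fit added after seeing the data, 261 genes were lower and 45 higher.

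**Figure D1:**
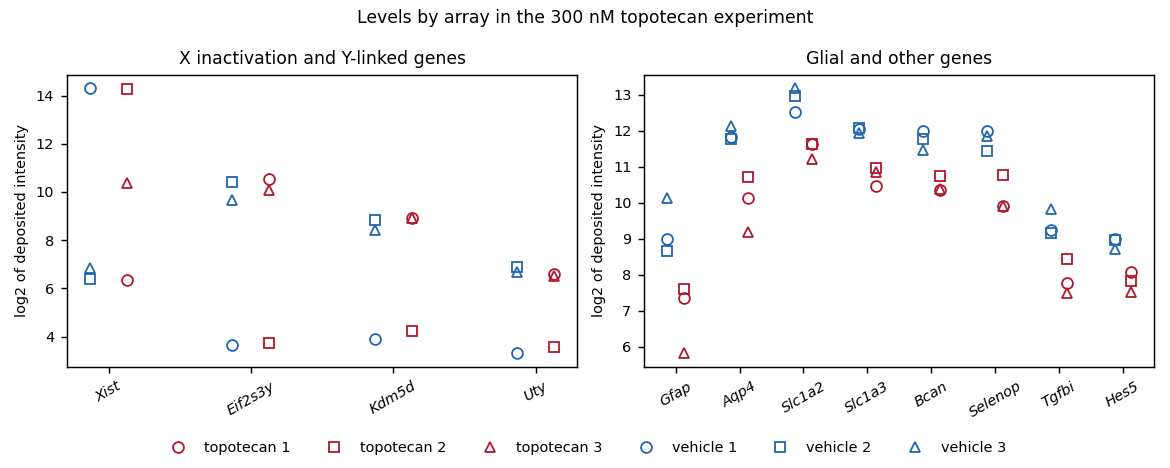
Log2 of the deposited intensity of each array, with topotecan arrays in red and vehicle arrays in blue and 1 symbol shape for each replicate number. Left, Xist and 3 Y-linked genes differ between arrays of the same group, from 6.33 to 14.32 for Xist. Right, 8 genes of glia and other cells, all called lower except Gfap, which did not pass (adjusted p = 0.0611 by limma). For each the 3 topotecan arrays lie below the 3 vehicle arrays. That held for the groups of every called gene, and groups were apart for 29.5% of all genes tested. The uncalled astrocyte genes Vim, Clu and Aldoc are not shown.

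More genes were lower than higher with topotecan in the fit of the 6 arrays. Of 10916 genes tested, each by its brightest probe set, 338 were lower (3.1%) and 142 higher (1.3%), 4.4% in all, by limma with a Benjamini-Hochberg threshold of 0.05. The groups were apart for all 480 called genes; they were apart for 29.5% of all genes tested. Over all 45101 probe sets, dim and unnamed ones included, 989 were lower (2.19%) and 337 higher (0.747%). Single arrays moved the number of called genes: it was 112 without topotecan 2, 158 without topotecan 3, 90 without vehicle 2 and 305 without vehicle 3. Without topotecan 1 or vehicle 1 it was 323 and 498. No gene called with all 6 arrays was called in the other direction in any of these 6 fits. With the spread taken from all 12 arrays of the table, the order of the counts turned, with 1131 genes lower and 1526 higher.

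Gpc5, a glypican that carries heparan sulfate chains and is prominent in astrocytes, had log2 levels of 5.7, 6.38 and 6.41 with topotecan and 10.03, 11.26 and 11.08 with vehicle. It fell by 4.63 on the log2 scale (SE 0.35, n = 3 arrays a group, adjusted p = 0.00223 by limma). Its topotecan arrays lay below 7.04, the brightness limit that a gene's mean over the table had to reach, and no fold is given for it. Grm7, a presynaptic metabotropic glutamate receptor, had 8.68, 7.97 and 7.5 against 11.13, 11.53 and 11.9. It was 11.1-fold lower, a log2 change of -3.47 (SE 0.32, adjusted p = 0.00278 by limma). Ctnna2, the neuronal alpha-catenin that links cadherins to actin, was 9.71-fold lower (log2 change -3.28, SE 0.25, adjusted p = 0.00223).

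Nkain2, whose product binds the sodium pump, had 8.68, 8.11 and 7.55 with topotecan against 11.12, 11.24 and 11.43 with vehicle and was 8.88-fold lower. Tenm1, a teneurin that joins cells across the synapse, was 8.73-fold lower, and Pcdh9, a protocadherin, 8.11-fold. All of these genes had topotecan arrays wholly below the vehicle arrays, which was a condition for being among the 12 largest falls. The other 6 of the 12 largest falls had a topotecan mean under the brightness limit. They were Nrg3, a neuregulin ligand of ErbB4 (log2 change -3.42), Lingo2, a leucine-rich repeat surface protein (-3.34), Kcnip4, a potassium channel interacting protein (-3.24), the transcription factor gene Npas3 (-3.22), Ccser1 (-3.12) and Dcc, the netrin receptor of growing axons (-3.03). Each of the 12 stayed called in all 6 fits that left out 1 array. Within the drug group topotecan 3 was the lowest array for 9 of them and topotecan 1 the highest for 11.

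**Figure D2:**
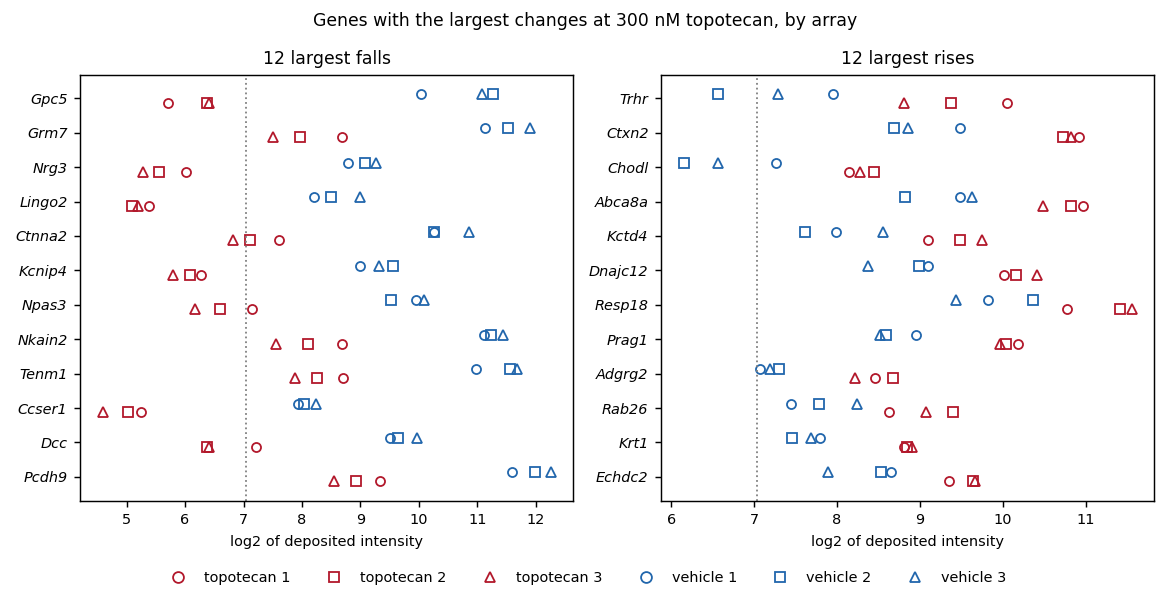
Log2 of the deposited intensity on each array for the 12 genes with the largest falls (left) and the 12 with the largest rises (right), topotecan in red and vehicle in blue, 1 symbol shape for each replicate number; the dotted line is the brightness limit of 7.04. The groups are apart for all 24 genes because only called genes with separate groups were taken. They were apart for 29.5% of all genes tested. The distance between the groups is larger for the falls than for the rises.

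The start regions of a strongly lowered and a strongly raised gene are shown to set their letters side by side, since both gene groups were compared for them. The promoters are 300 bases long, from RefSeq on GRCm38.p6, read 5′ to 3′, with CG pairs in capitals. They are those of the largest fall and of the largest rise among genes with exactly 1 promoter in the RefSeq table. That of Gpc5 lies at chr14:115091965-115092264 on the plus strand and holds 17 CG pairs. That of Ctxn2 lies at chr2:125136442-125136741 on the plus strand and holds 18.
Gpc5: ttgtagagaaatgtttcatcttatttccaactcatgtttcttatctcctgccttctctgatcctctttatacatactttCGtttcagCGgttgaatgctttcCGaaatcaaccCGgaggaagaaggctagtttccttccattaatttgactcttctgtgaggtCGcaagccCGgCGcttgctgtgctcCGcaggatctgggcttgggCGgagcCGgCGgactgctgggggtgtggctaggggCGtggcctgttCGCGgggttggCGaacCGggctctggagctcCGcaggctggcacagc
Ctxn2: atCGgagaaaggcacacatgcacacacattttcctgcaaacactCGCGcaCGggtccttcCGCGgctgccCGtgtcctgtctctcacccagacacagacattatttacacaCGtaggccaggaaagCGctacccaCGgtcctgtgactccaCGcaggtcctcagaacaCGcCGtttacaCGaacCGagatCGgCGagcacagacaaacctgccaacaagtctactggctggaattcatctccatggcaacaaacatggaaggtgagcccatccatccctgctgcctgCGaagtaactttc
Over the 6963 tested genes with 1 such promoter, the median was 22 CG pairs; it was 24 for the 184 lower genes among them and 18 for the 83 higher ones. The letters TATAAA on the gene's strand were present in 2.17% of lower, 2.41% of higher and 3.89% of all these promoters. The letters GGGCGG, on either strand, were in 66.3%, 69.9% and 68.9%. A match of letters is a description and no binding site.

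Gene length separated the falls from the rises. The median annotated length, introns included, was 386 kb for the lower genes, 18.2 kb for the higher genes and 24.6 kb for the uncalled ones. Of the lower genes 305 were over 100 kb, 32 were shorter and 1 had no length; of the higher genes 10 were over 100 kb and 130 shorter. Among 237 genes over 400 kb, 159 were lower (67.1%) and 0 higher, with a median log2 change of -1.25. Genes of 200 to 400 kb had 111 of 432 lower (25.7%) and a median of -0.57, and genes of 100 to 200 kb had 35 of 981 lower (3.57%) and a median of -0.2. Genes of up to 10 kb had a median of 0.13 with 35 of 2555 higher and 10 lower. Since all genes tested had a median of 0.06, the short genes lay slightly above the array-wide centre. Set against the vehicle mean, their median was 0.12, 0.14 and 0.13 on topotecan 1, 2 and 3. It was 0.09, -0.01 and -0.07 on vehicle 1, 2 and 3, so vehicle 1 lay close to the drug arrays.

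The shift was seen on each drug array. The median of genes over 400 kb, set against the mean of the vehicle arrays, was -1.01, -1.18 and -1.55 on topotecan 1, 2 and 3. It was -0.2, -0.02 and 0.22 on vehicle 1, 2 and 3, so the vehicle arrays also differed among themselves, by less than their distance from the drug arrays. The long-gene score, which subtracts the mean log2 level of shorter genes from that of genes over 100 kb, was -0.518 ± 0.132 (SD, n = 3) with topotecan and 0.0471 ± 0.142 with vehicle. The difference of -0.565 had p = 0.1 in a two-sided exact permutation test, the smallest value that 3 against 3 arrays allow.

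**Figure D3:**
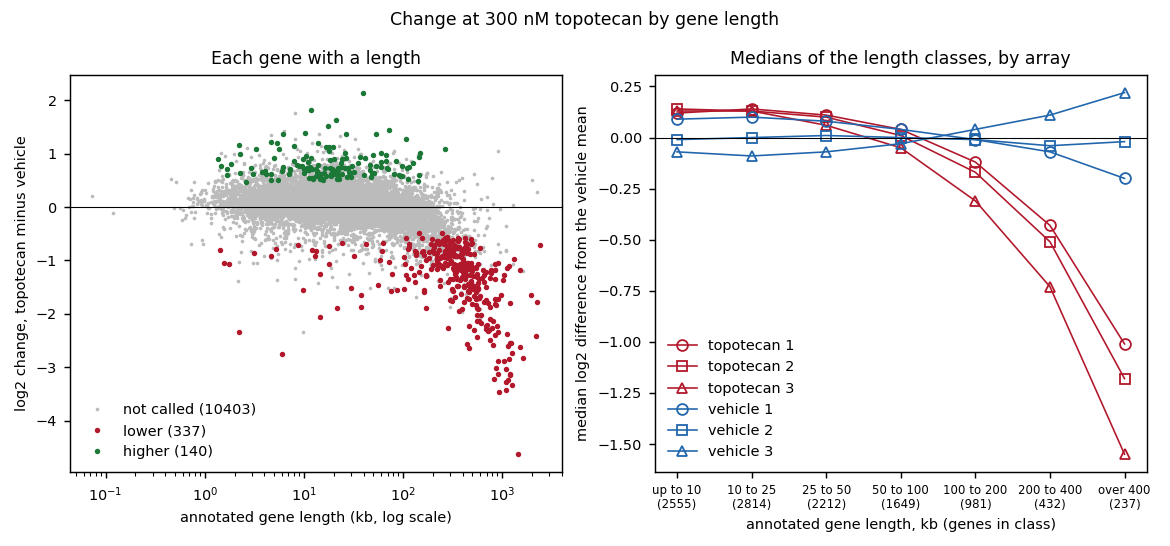
Left, log2 change (topotecan minus vehicle) of each gene against its annotated length in kb on a log axis, with lower genes in red, higher genes in green and uncalled genes in grey. Right, the median log2 difference from the vehicle mean in 7 length classes for each array; the topotecan arrays go down from 100 kb on and reach -1.01 to -1.55 over 400 kb, where the vehicle arrays lie between -0.2 and 0.22.

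Not every very long gene was called. Of the 237 genes over 400 kb, 78 were not called lower, and 12 of these had a change above 0. The highest was Wwox, a gene of a common fragile site, with a log2 change of 1.06 (adjusted p = 0.0649 by limma). Pde4b, a cyclic AMP phosphodiesterase gene of 520 kb, had 0.61 (adjusted p = 0.0955). Macrod2, of 2000 kb, had 0.5 (adjusted p = 0.102), and Lrrtm4, a postsynaptic organizer, 0.55 (adjusted p = 0.129). These 4 were chosen after their values were seen. Of the 78 genes 61 had more than 1 probe set, and for 12 of the 78, Macrod2 and Lrrtm4 among them, a dimmer probe set was called lower.

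The rises were smaller and spread over short genes of varied function. Trhr, the receptor of thyrotropin-releasing hormone, rose most, with log2 levels of 10.05, 9.38 and 8.81 against 7.95, 6.57 and 7.29. It was 4.42-fold higher (log2 change 2.14, SE 0.41, adjusted p = 0.033 by limma), but its call remained in only 1 of the 6 fits that left out 1 array. Ctxn2, which codes for a small membrane protein of the cortexin family, had 10.92, 10.73 and 10.83 against 9.49, 8.69 and 8.86. It was 3.52-fold higher (SE 0.21 on the log2 scale, adjusted p = 0.00729) and stayed called in all 6 fits.

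Prag1 had 10.18, 10.04 and 9.97 against 8.95, 8.59 and 8.52 and was 2.59-fold higher. Krt1, a keratin gene, was 2.3-fold higher, with 8.81 to 8.91 on the topotecan arrays and 7.46 to 7.8 on the vehicle arrays. Like Ctxn2, both stayed called in all 6 fits. Further rises among the 12 largest were Abca8a, a lipid transporter gene (2.73-fold), Kctd4 (2.62-fold), Dnajc12, a co-chaperone of aromatic amino acid hydroxylases (2.59-fold), Resp18, a protein of secretory granules (2.59-fold), Rab26, a vesicle GTPase (2.32-fold), and Echdc2 (2.29-fold). Chodl, a C-type lectin gene of motor and other neurons, rose by a log2 change of 1.63 from a vehicle mean below the brightness limit. Without array topotecan 2 or vehicle 2, only 9 and 11 genes in all were called higher, so most rises did not hold there.

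Among genes over 100 kb 10 of 1642 rose, against 130 of 9238 shorter genes. Lengths were rounded for these totals, so genes that round to 100 kb count as shorter wherever the totals recur, but not in the length classes. Adgrg2, an adhesion G protein-coupled receptor gene of 108 kb, had 8.46, 8.68 and 8.22 against 7.07, 7.3 and 7.19 and was 2.41-fold higher (adjusted p = 0.00729 by limma). Prune2, of 268 kb, was the longest of them, with 10.07, 10.16 and 10.41 against 9.02, 9.4 and 8.96 and a 2.12-fold rise. Rps6ka6, a ribosomal S6 kinase gene, had 9.51, 9.44 and 9.49 against 8.55, 8.4 and 8.45, and was 2.02-fold higher (adjusted p = 0.00451). Adgrg2 and Rps6ka6 remained called whichever array was left out. The others were Klhl13 (1.92-fold), Map2k6, a kinase upstream of p38 (1.77-fold), Adamts16 (1.68-fold), Mbp (1.67-fold), Ankrd6 (1.52-fold), Clvs2 (1.44-fold) and Rgs3 (1.4-fold). The calls of Mbp, Ankrd6, Clvs2 and Rgs3 were lost in each of the 6 fits that left out 1 array. For Mbp, the myelin basic protein gene, 2 dimmer probe sets were called lower over all probe sets (log2 changes -0.64 and -1.09), so its probe sets disagreed.

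Genes of 20 lists of neuronal function were read next; the lists overlap, and each gene is counted once here. Of 474 tested members 97 were lower (20.5%) and 9 higher, against 3.1% and 1.3% of all genes tested. These lists hold many long genes: 239 of the 474 were over 100 kb. Of those 239, 96 were lower (40.2%), with a median log2 change of -0.78, against 18.6% and -0.35 for all 1642 tested genes of that length. Length was not matched within this class, where the share lower was 3.57% at 100 to 200 kb, 25.7% at 200 to 400 kb and 67.1% over 400 kb. The lists were also chosen with earlier results of these data known. Whether their members differ from other genes of equal length was not tested. Of the 235 shorter members 1 was lower, 8 were higher, and the median was 0.06, against 0.1 for all 9238 shorter genes. Of the 99 called genes that the text names by rule, on these lists or others, 58 lost their call without vehicle 2, 48 without topotecan 2, 39 without topotecan 3, 25 without vehicle 3, 20 without topotecan 1 and 16 without vehicle 1, and 40 kept it in all 6 fits; none changed direction.

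**Figure D4:**
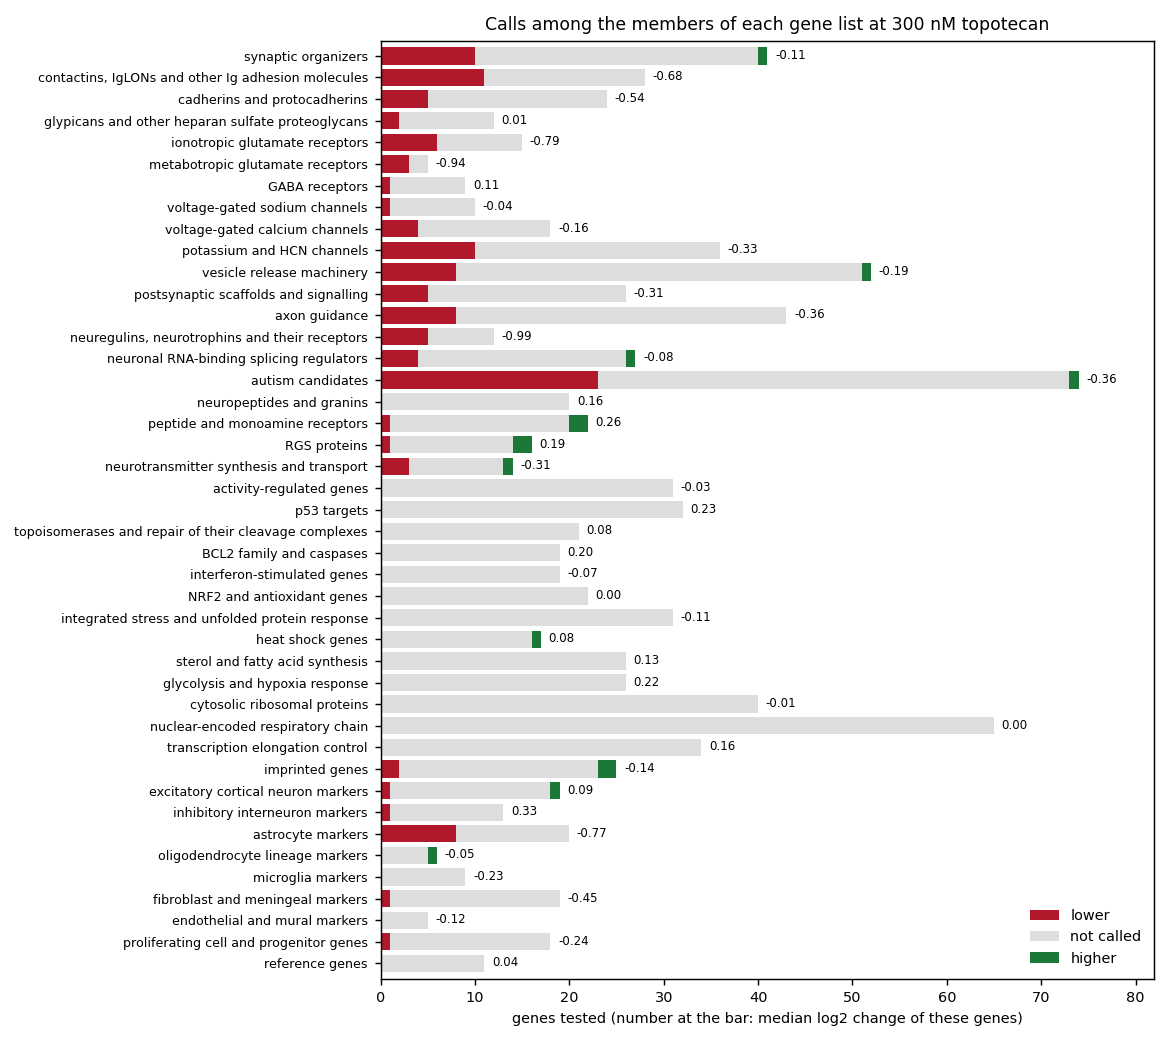
Number of genes tested in each of 43 gene lists, split into genes called lower (red), not called (grey) and called higher (green), with the median log2 change beside each bar. Of the 338 lower genes, 97 are on the neuronal lists, 12 on the cell type lists and 2 on the response lists, and a gene can be on several. The lists of stress, metabolism and ribosome genes, mostly short ones, hold almost none.

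Among synaptic organizers, the surface proteins that line up both sides of a synapse, 10 of 41 were lower and 1 higher. The 18 members over 100 kb had a median log2 change of -1.73 and the 23 shorter ones -0.03. Nlgn1, the postsynaptic neuroligin of excitatory synapses, had 8.08, 7.61 and 7.17 against 10.12, 10.68 and 10.69 and was 7.36-fold lower (log2 change -2.88, SE 0.26, adjusted p = 0.00253 by limma). Its presynaptic partner gene Nrxn3 was 7.13-fold lower by its brightest probe set, with 9.04, 8.77 and 8.33 against 11.2, 11.58 and 11.87.

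Of 28 contactins, IgLONs and related adhesion proteins of the immunoglobulin superfamily, 11 were lower and none higher (median -0.68). Lsamp, at 2200 kb the longest of the IgLON genes named here, was 5.31-fold lower, and its relative Opcml 5.21-fold. Mdga2, which binds neuroligins, was 5.62-fold lower, and Cntn5 had a log2 change of -2.73 to a mean under the brightness limit. Of 24 cadherins and protocadherins 5 were lower (median -0.54). Cdh13, a cadherin without a cytoplasmic tail, had 9.3, 9.26 and 9.17 against 11.7, 12.23 and 12.35 and was 7.22-fold lower. Pcdh11x was 4.07-fold and Pcdh7 3.45-fold lower. Of 12 heparan sulfate proteoglycans, Gpc5 and Gpc6 were lower, and the median was 0.01.

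Several receptors of glutamate, the main excitatory transmitter, were lower. Of 15 ionotropic glutamate receptors 6 were lower (median -0.79). Grin2b, a subunit of the NMDA receptor, had 9.11, 8.82 and 8.29 against 10.44, 11.09 and 11.37 and was 4.68-fold lower (adjusted p = 0.0105 by limma). Gria1, an AMPA receptor subunit, was 2.96-fold lower, while Grik2 (log2 change -2.28) and Grid1 (-1.86) fell below the brightness limit on average. Of 5 metabotropic receptors 3 were lower: Grm7, Grm5 (3.01-fold) and Grm3 (1.92-fold). The call of Grm3 remained in 1 of the 6 fits that left out 1 array. Of 9 GABA receptor genes only Gabrb1 was lower, 2.7-fold, and the median was 0.11.

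Among channels, 10 of 36 potassium and HCN channel genes were lower (median -0.33; -1.27 for the 16 over 100 kb). After Kcnip4 the largest falls there were Dpp10, an auxiliary subunit of A-type channels (6.13-fold), Kcnq5, which carries M current (5.42-fold), and Kcnma1, the large-conductance calcium-activated channel (4.65-fold). Of 18 calcium channel genes 4 were lower: Cacna1c (4.5-fold), Cacna2d3 (4.4-fold), Cacna2d1 (3.27-fold) and Cacna1e (2.29-fold). Of 10 genes of sodium channels and their partners, Fgf12 was lower, 3.18-fold. None of these 3 lists had a higher member, which is near the background, since 1.3% of all genes tested were higher.

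In the release machinery 8 of 52 genes were lower and 1 higher (median -0.19). Erc2, an active zone scaffold, had 10.15, 9.82 and 9.66 against 12.04, 12.18 and 12.61 and was 5.27-fold lower (adjusted p = 0.00223 by limma). Ppfia2, a liprin of the active zone, was 3.3-fold, Cadps, which primes dense-core vesicles, 2.95-fold, and Syt1, the calcium sensor of fast release, 2.87-fold lower. On the receiving side 5 of 26 postsynaptic scaffold genes were lower (median -0.31), among them Dlgap1 (3.53-fold), Dlg2 (3.11-fold), the gephyrin gene Gphn (3.03-fold) and Grip1 (2.51-fold). Of 14 genes on the list of transmitter synthesis and transport 3 were lower. They were the astrocytic glutamate transporter genes Slc1a2 (2.63-fold) and Slc1a3 (2.39-fold) and the scaffold gene Gphn, which this list also holds. Slc17a6, a vesicular glutamate transporter gene, was 1.97-fold higher, with 10.7, 11.27 and 11.12 against 9.99, 10.11 and 10.06. Its call remained in 2 of the 6 fits that left out 1 array.

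Of 43 axon guidance genes 8 were lower (median -0.36; -0.82 for the 25 over 100 kb). Next to Dcc they included Unc5d, another netrin receptor (3.74-fold), Epha5, an ephrin receptor (2.8-fold), and Robo1, a receptor of Slit (2.57-fold). Of 12 neuregulins, neurotrophins and receptors 5 were lower (median -0.99), with Sorcs2 3.07-fold, Egfr 2.94-fold and the BDNF receptor gene Ntrk2 2.1-fold lower. Egfr had 7.93, 8.45 and 7.91 against 9.61, 9.65 and 9.7, so its vehicle arrays hardly differed.

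Splicing regulators had 4 of 27 lower and 1 higher (median -0.08). Celf2 had 11.85, 11.61 and 11.35 against 12.94, 12.94 and 12.98 and was 2.55-fold lower (adjusted p = 0.00546 by limma). Rbfox1 was 2.26-fold lower and Qk 2.56-fold, while Celf6 was 1.7-fold higher. The calls of Qk and Celf6 each remained in 1 of the 6 fits that left out 1 array. Of 74 tested autism candidate genes 23 were lower and 1 higher (median -0.36); all 23 were among the 47 over 100 kb. The count of lower ones was 9 without vehicle 2, 11 without topotecan 2 and 14 without topotecan 3. The list shares members with the others. Reln, the reelin gene of early cortical neurons and interneurons, is on it and had 11.06, 10.29 and 9.75 against 13.02, 12.96 and 13.04 and was 6.25-fold lower. Fmr1, the fragile X gene, had a log2 change of 0.08 (adjusted p = 0.796).

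Neuropeptides and granins, mostly short genes, had 0 of 20 called in limma and a median of 0.16. Of these, 19 are up to 100 kb, where 32 of all 9238 genes were lower and 130 higher, so a count of 0 is near the background; 2356 of all genes tested passed an unadjusted p of 0.05. Of 22 peptide and monoamine receptors Trhr and Chrnb2 (1.46-fold) were higher and the serotonin receptor gene Htr2c 2.79-fold lower (median 0.26). Of 16 RGS proteins, which end G protein signals, Rgs17 (1.49-fold) and Rgs3 were higher and Rgs7 2.44-fold lower (median 0.19). The calls of Chrnb2 and Rgs3 were lost in each of the 6 fits that left out 1 array, and that of Rgs17 remained in 1.

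For 13 genes, different probe sets of the same gene changed by different amounts. The within-array difference between a dimmer probe set and the brightest one was tested for 7202 pairs from 4570 genes, and 13 pairs (0.181%) passed. Of the 13 genes with unequal pairs 9 were over 400 kb, a class that held 207 of the pairs. Cntnap2, a neurexin relative of 2240 kb and 1 of the longest mouse genes, gave the largest difference. Its brightest probe set had 11.29, 11.19 and 10.4 with topotecan against 10.71, 10.56 and 10.78 with vehicle, groups that overlap (adjusted p = 0.534 in the gene-level fit by limma). Another of its probe sets had 7.56, 7.23 and 5.84 against 9.32, 9.72 and 10.29, a log2 change of -2.9 (SE 0.44, adjusted p = 0.0177 over all probe sets). The difference between both changes was -3.18 (SE 0.29, adjusted p = 0.0232).

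For Nrxn3 the order was the other way round. The brightest probe set fell, and a dimmer one had 9.49, 9.36 and 9.61 against 9.44, 9.47 and 9.57, a log2 change of -0.01. The other Nrxn3 probe sets were called lower, with log2 changes of -3.09, -3 and -1.13. Tenm2, a teneurin gene, had a fall of 2.55 by its brightest probe set and a change of -0.04 by another, and Kcnq5 had -2.44 and -0.17. Both Pcdh9 probe sets of the pair were called lower, with changes of -3.02 and -0.81, and a further one under the brightness limit had -0.03. Kirrel3, of 555 kb, had 0.42 by the brightest and -1.25 by the other, and neither was called. Smaller differences that passed were in Cpne8, Dlgap1, Syt1, Fgf14, Rbmx, Cp and Get1. Where along the transcripts each probe set lies was not analysed here. Leaving out 1 array left 0 of these pairs called in 5 of 6 fits and 1 without vehicle 1.

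**Figure D5:**
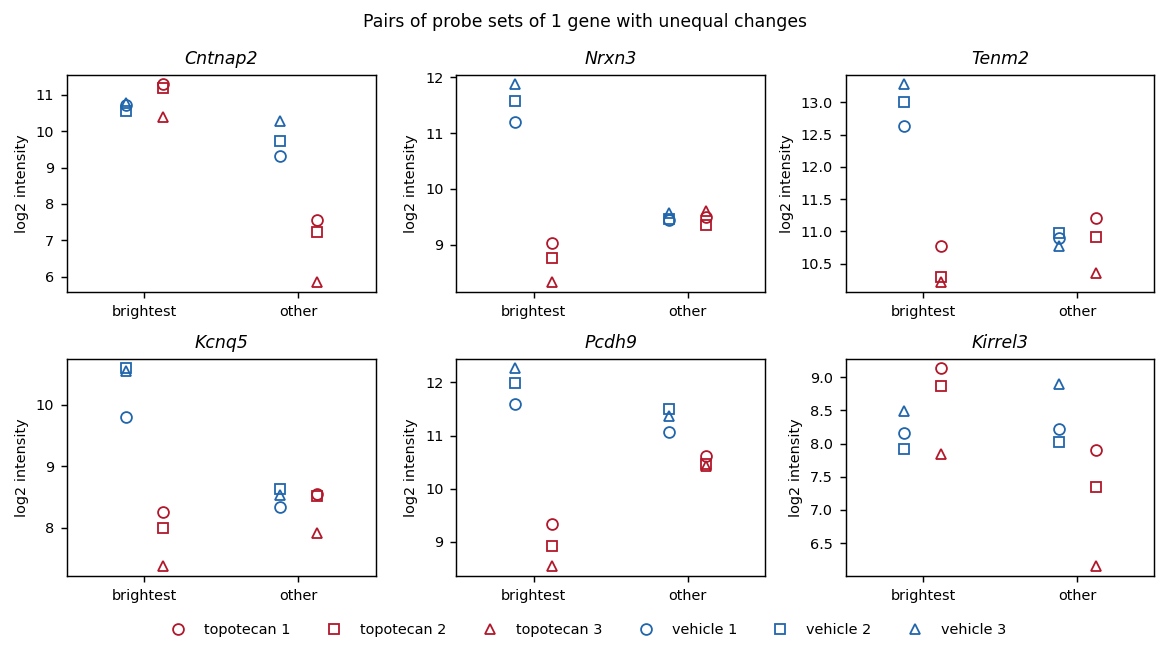
Log2 of the deposited intensity on each array for the brightest and another probe set of 6 genes with the largest unequal changes, topotecan in red and vehicle in blue. In Cntnap2 only the other probe set separates the groups, and in Nrxn3, Tenm2 and Kcnq5 only the brightest one does.

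Over all probe sets 2 genes, Mbp and Nav2, had probe sets called in both directions, among 9012 genes with several. In Nav2, a long gene of axon growth, 5 probe sets were called lower and a dim one higher (log2 change 1.11, adjusted p = 0.0441). At least 1 probe set was called lower for 442 genes and higher for 250, and 162 genes had 2 or more lower probe sets.

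The transcripts of topoisomerases and of the enzymes that clear trapped ones were not among the called genes. Top1, the target of the drug, had 11.76, 11.76 and 11.66 with topotecan against 11.62, 11.58 and 11.44 with vehicle. The groups did not overlap, and the log2 change of 0.18 (SE 0.11) did not pass (adjusted p = 0.382 by limma). Top2b, the topoisomerase II of postmitotic neurons, had -0.31 (adjusted p = 0.327) and Top2a, that of dividing cells, -0.58 (adjusted p = 0.195). Top1mt, Top3b, Tdp1 and Tdp2 had changes of 0.51, -0.03, 0.08 and 0.3 with adjusted p of 0.22 to 0.915. All 21 tested genes of this list were uncalled, with a median of 0.08. All are up to 100 kb, where 32 of 9238 genes were lower and 130 higher, so this count is near the background. Top3a lay under the brightness limit.

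Lists of cell responses hold mostly short genes, few of which were called in general. Of 408 tested genes on 15 such lists, 2 were lower and 3 higher, against 3.1% and 1.3% of all genes tested. The 393 of up to 100 kb had 1 lower and 3 higher, against 32 and 130 of 9238 genes of that length, so these counts are near the background. In the limma fit 13 of the lists had no called member. Of 32 targets of p53, the factor that answers DNA damage, none was called and the median was 0.23; without vehicle 1, 1 of them was higher, and with the spread of all 12 arrays 3 were higher and 1 lower. Cdkn1a, which codes for the cell cycle inhibitor p21, had 12.6, 12.51 and 13.44 against 12.89, 12.75 and 11.57, so topotecan 3 was the highest array and vehicle 3 the lowest. Its log2 change was 0.45 (adjusted p = 0.548), and that of Mdm2, which degrades p53, 0.32 (adjusted p = 0.54). The median of the p53 targets was -0.13 without both arrays numbered 3, a setting added after seeing the data. Fos, an early gene of neuronal activity, had 0.04 (adjusted p = 0.965), and none of 31 activity-regulated genes was called; without topotecan 1 or without vehicle 1, 2 of them were lower, and with the spread of all 12 arrays 7 were lower and 1 higher.

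Hrk, a BH3 gene of neuronal death, had the largest rise among 19 genes of the BCL2 and caspase list, 0.8 (adjusted p = 0.0728), and was not called. The co-chaperone gene Dnajb4 was the 1 called member of 17 heat shock genes, 1.57-fold higher, in none of the fits that left out 1 array. No member was called among 19 interferon-stimulated genes (1 was higher without vehicle 1), 22 NRF2 and antioxidant genes, 31 genes of the integrated stress response, 26 of sterol synthesis or 26 of glycolysis. The same held for 40 ribosomal protein genes (median -0.01), 65 respiratory chain genes (median 0), 34 genes of transcription elongation control (median 0.16) and 11 reference genes (median 0.04). Actb had a log2 change of 0.25 (adjusted p = 0.235) and Gapdh 0.15 (adjusted p = 0.587).

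Imprinted genes, expressed from 1 parental copy, included falls and rises. In neurons the long transcript Snhg14 runs against Ube3a, the ubiquitin ligase gene lost in Angelman syndrome, and silences its paternal copy. Snhg14 had 10.28, 9.86 and 9.5 with topotecan against 10.8, 10.89 and 11.28 with vehicle and was 2.16-fold lower (log2 change -1.11, SE 0.22, adjusted p = 0.0385 by limma). Ube3a had 11.73, 11.47 and 11.69 against 11.19, 10.95 and 10.9 and was 1.53-fold higher (log2 change 0.62, SE 0.13, adjusted p = 0.0462). The groups did not overlap for either gene, and each call remained in 1 of the 6 fits that left out 1 array.

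The 6 probe sets of Ube3a did not move together. One dimmer probe set was called higher over all probe sets (log2 change 0.84, adjusted p = 0.015), another had 0.32, and 3 more had changes of -0.36, -0.41 and -0.59 that were not called. Which of them read the strand of Ube3a and which that of Snhg14 was not analysed here. Mirg, a noncoding host of maternally expressed microRNAs, had 7.7, 7.3 and 7.41 against 9.33, 9.46 and 9.81 and was 4.17-fold lower, called in all 6 such fits. Blcap was 1.64-fold higher, and its call remained in 1 of these 6 fits. In all 2 of 25 tested imprinted genes were lower and 2 higher, against 3.1% and 1.3% of all genes tested, with a median of -0.14.

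Of 20 tested astrocyte markers 8 were lower and none higher, with a median of -0.77. Of the 17 markers of up to 100 kb 5 were lower, against 32 of all 9238 tested genes of that length; their median was -0.68, against 0.1. The summed intensity of the 22 markers with a probe set was 64801 to 75535 on the topotecan arrays and 98947 to 105793 on the vehicle arrays, ranges that do not overlap. Only Gjb6 and S100b of them lay under the brightness limit. Fewer astrocytes and less of these transcripts per cell cannot be told apart in such bulk RNA. The number of lower markers was 3 without vehicle 2 and 5 without topotecan 1 or topotecan 2.

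Aqp4, the astrocyte water channel gene, of 21.6 kb, had 10.12, 10.7 and 9.18 against 11.81, 11.77 and 12.12 and was 3.72-fold lower (SE 0.35 on the log2 scale, adjusted p = 0.0311 by limma). Gfap, the astrocyte intermediate filament gene, had 7.34, 7.6 and 5.81 against 8.98, 8.65 and 10.14; its log2 change of -2.34 did not pass (adjusted p = 0.0611). Slc4a4, a bicarbonate transporter gene of 446 kb, was 5.93-fold lower, and Cldn10, of 86.7 kb, 2.93-fold. The astrocyte genes Vim, Clu and Aldoc had log2 changes of 0.31, -0.01 and -0.17 and were not called.

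After Mirg and Aqp4, the largest falls among named genes of up to 50 kb were in Slc6a13, Selenop, Tgfbi and Bcan. Slc6a13, a transporter of GABA and taurine found in meninges, had a log2 change of -1.87 to a mean under the brightness limit. Selenop, a secreted selenoprotein, had 9.92, 10.78 and 9.9 against 11.99, 11.44 and 11.86 and was 2.95-fold lower. Tgfbi, a matrix protein gene induced by TGF-beta, was 2.86-fold lower, and Bcan, the brevican gene of the brain matrix, 2.39-fold. The calls of Selenop and Tgfbi each remained in 1 of the 6 fits that left out 1 array, and that of Bcan in 4. Among proliferating cell and progenitor genes Hes5, a Notch target, was the 1 of 18 called, 2.1-fold lower. All 18 are up to 100 kb, where 32 of all 9238 genes were lower and 130 higher.

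Markers of other cell types were read the same way. Of 108 tested genes on all cell type lists, astrocytes included, 96 were up to 100 kb. Of all 9238 tested genes of that length 32 were lower and 130 higher, so a count of 0 in a short list is near the background. Of 19 fibroblast and meningeal markers Slc6a13 was lower and none higher (median -0.45). The summed intensity of this list was 26294 to 43040 with topotecan and 43324 to 60667 with vehicle. These ranges do not overlap but nearly touch, and each is wide beside the gap. How often the sums of lists are apart was not counted. No member of 9 microglia markers was called (median -0.23, summed intensity 1784 to 4798 against 2501 to 3817). The 5 endothelial and mural markers were also uncalled (median -0.12, 2209 to 2657 against 3111 to 4402, again without overlap). Slco1c1, the brightest of the 5 and so the heaviest in the sum, had a log2 change of -1.23 (mean 9.76 against 11). Vtn had -0.59, and Cspg4, Egfl7 and Rgs5 had -0.12, 0.05 and 0.5. These sums include members under the brightness limit. Aif1, Cx3cr1 and P2ry12 of microglia and Pecam1 and Cdh5 of endothelium were under the brightness limit, as were all 5 red blood cell genes with a probe set. Of 19 excitatory neuron markers Slc17a6 was higher and Mef2c 1.86-fold lower (median 0.09). The summed intensity of this neuronal list was 31931 to 36367 against 36596 to 44941, ranges that do not overlap either but nearly touch. Camk2a and Mef2c, the brightest of the 19 by vehicle mean and so heavy in the sum, had log2 changes of -0.68 and -0.89. The median change of the list, 0.09, did not follow the sum. Of 13 interneuron markers Reln was lower (median 0.33; 18347 to 32468 against 27668 to 32090). Oligodendrocyte markers had 6 tested genes, with Mbp higher and a median of -0.05 (3737 to 3994 against 3756 to 5225). The 18 progenitor genes had a median of -0.24 (10698 to 11700 against 11216 to 14320). The part of these cell types in the results on other genes was not tested.

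The falls were also found in a separate experiment with topotecan at 1 µM on a later array type, with 6 drug and 6 vehicle arrays and no arrays in common. Dose, array type and number of arrays differ between both experiments, and treatment time is not given for each array. At 1 µM 2773 of 13308 tested genes were lower (20.8%) and 2434 higher (18.3%); without the filter on dim genes 2729 were lower and 3771 higher, so the order of these counts depends on the filter. Of the 332 genes lower at 300 nM and tested there, 309 were lower (93.1%), which is 13.5% of the 2297 genes lower at 1 µM and tested here. Of the 126 higher genes tested there, 49 were higher (38.9%), which is 3.01% of 1626. Among lower genes of up to 100 kb, 18 of 28 were lower at 1 µM. The share lower at 1 µM among all genes of that length was not counted, so this count has no matching background.

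Single values of both experiments are given side by side, without a test. Nkain2 had a log2 change of -3.15 at 300 nM and -3.29 at 1 µM, Cdh13 -2.85 and -2.9, Reln -2.64 and -2.5, and Aqp4 -1.89 and -2.74. Gpc5 had -4.63 and -1.99, and Rbfox1 -1.17 and -2.6. Cntnap2, Kirrel3 and Fgf14, uncalled here by their brightest probe sets, had -1.94, -1.56 and -1.42 at 1 µM, all called lower. Gfap had -2.72 there (adjusted p = 1.4e-10 by limma). Trhr had 2.14 and 0.88 and Ube3a 0.62 and 0.21, higher in both. Kctd4, Resp18 and Krt1, higher at 300 nM, had 0, -0.05 and 0.2 at 1 µM, none called, and Selenop and Tgfbi, lower at 300 nM, had -0.15 and 0.16, not called. Of the called genes 5 that were higher here were lower at 1 µM (Lancl3, Prune2, Rgs3, Sla and Smug1) and 2 that were lower here were higher there (Hbp1 and Slc9a3r1).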

How the data were processed

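The authors deposited 1 intensity value per probe set, on a linear scale. RMA and Affymetrix Expression Console are named in the submitters' processing notes; their versions, and which arrays entered RMA together, are not given in the sources used here. Log2 of the deposited intensity was taken. Of 45101 probe sets 34958 had 1 gene symbol, 932 several and 9211 none (older platform annotation, renamed through RefSeq, GRCm38.p6; lengths are from the same table). For each of 18194 genes the brightest probe set over the 12 arrays of the table was used, and genes under the 40th percentile (log2 7.04) were left out. Groups were compared with limma 3.58.1 in R 4.3.3, 2-sided, with Benjamini-Hochberg adjustment over all features, threshold 0.05; the method was tested on simulated data. The number of arrays limits the precision. Fits on 2 against 3 arrays estimate the spread from the remaining 5.

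Members and gene lists were chosen with earlier results of these data known. Genes were named by rule: the 12 largest rises and falls with separate groups, up to 4 called members of each list, the 6 largest falls up to 50 kb, called rises over 100 kb (up to 10), the 10 largest probe set differences and a set of always named genes; predicted genes were counted, not named. Where a group mean lay under the limit, no fold is given.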

Additional observations from a re-analysis of the deposited data

Results flagged for a closer look

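Prune2, a gene of 268 kb, moved in opposite directions in both topotecan experiments, with groups that did not overlap in either. Its log2 change was 1.08 (SE 0.16) at 300 nM and -0.45 (SE 0.09) at 1 µM on the other array type. The difference was not tested, since the array types differ. Groups of 3 arrays are too small for a check of single arrays that stand apart.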

How the results depend on the processing

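Leaving out 1 array gave 90 to 498 called genes in place of 480, 262 to 1214 probe sets in place of 1326, 0 to 1 probe set pairs in place of 13 and long-gene score differences of -0.628 to -0.488 in place of -0.565. Of 99 called genes named by rule 40 stayed called in all 6 such fits and 6 in none; none reversed under any alternative. Replicate numbers did not pair the arrays (correlations of same-numbered deviations -0.0114, -0.161 and -0.453); with a replicate block 1 gene, 1 probe set and 0 pairs were called. The spread of all 12 arrays of the table, of which 6 belong to another drug experiment, gave 2657 genes (1131 lower, 1526 higher, so the order of the counts turned) and 5518 probe sets. Log2 of the value plus 50 gave 828 probe sets. With both probe sets over the 60th percentile 3 pairs passed. The score difference was -0.906 for genes over 200 kb. Chosen after seeing the data, the Xist covariate gave 306 genes and 831 probe sets, and omission of both arrays numbered 1 or 3 gave 257 and 259 genes, with a score difference of -0.417 without the latter. The cause of these changes was not tested. The other alternatives (quantile normalization, trended prior, filters, mean of probe sets, choice of brightest, minimum fold) gave 412 to 525 genes, 66.3 to 72.9% of them lower.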
